A study of Homo sapiens with 171 samples.

Results

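The small nucleolar RNAs (snoRNAs) of 2 imprinted regions, SNORD113 and SNORD114 on chromosome 14q32 and SNORD115 and SNORD116 on chromosome 15q11-q13, were followed over 46 established ovarian cancer cell lines. Members were the genes with a probe set annotated to 1 symbol that begins with SNORD113-, SNORD114-, SNORD115- or SNORD116-. Where a gene had several such probe sets, the one brightest on average was taken. This gave 46 members among 18417 genes, of which 2 were SNORD113 copies, 4 SNORD114 copies, 20 SNORD115 copies and 20 SNORD116 copies. A RefSeq gene table lists 9, 31, 48 and 30 copies of these families. Of the other copies, 22 of SNORD115 and 9 of SNORD116 appeared only on probe sets that name several symbols and were left out.

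Each line was measured untreated and after 48 h of cisplatin, a platinum drug that crosslinks DNA, given at each line's own growth-inhibitory concentration (GI50). RNA was read on Affymetrix arrays, and levels are log2 values made with RMA, a method that corrects background, equalises arrays and combines probes into 1 value per probe set. The lines of batch 1 were A2780, HeyA8, HeyC2, OVCA420, OVCA429, PA-1 and TYK-nu, those of batch 2 were A2008, CH1, DOV13, FU-OV-1, OV90 and OVCA433, and those of batch 3 were C13, DOV13B, IGROV-1, OVCAR-10 and OVCAR-8. These 18 lines had 3 cultures in each arm, except for 2 treated HeyA8 cultures. In batches 4 and 5, which hold 12 and 19 untreated lines, each line had 1 culture in an arm, except that PA-1 and SKOV-3 of batch 5 were untreated only. PA-1, SKOV-3 and OVCA433 were measured in more than 1 batch. Some lines are related by origin: HeyA8 and HeyC2 share a name with Hey, DOV13B and DOV13A with DOV13, and A2780cisR with A2780. C13 is known as a derivative of A2008, and CH1 as a derivative of PA-1, a line from an ovarian teratocarcinoma.

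Box C/D snoRNAs are short RNAs cut from introns of longer host transcripts, and most guide the methylation of ribosomal RNA. The imprinted families are arrays of near-identical copies with no known ribosomal target. SNORD113 and SNORD114 lie in introns of a non-coding transcript downstream of MEG3 and are expressed from the maternal chromosome. SNORD115 and SNORD116 lie in introns of SNHG14, which starts near SNURF and SNRPN and is expressed from the paternal chromosome. Loss of the paternal SNORD116 array is tied to Prader-Willi syndrome, and SNORD115 is known mainly from brain. A copy's probes can cross-read near-identical copies and can read the intron of an unspliced host as well as the snoRNA, so the values of single copies are uncertain and these sources cannot be told apart. In such bulk samples, fewer cells that make an RNA and less of it per cell cannot be told apart either.

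A start region is shown for each imprinted domain, near SNURF for the transcript that hosts SNORD115 and SNORD116 and at MEG3 upstream of SNORD113 and SNORD114. SNURF, SNRPN and SNHG14 were not among the genes with a probe set of 1 symbol, so levels of the 15q host itself were not analysed here. They are 300-base windows of RefSeq promoters on assembly GRCh38.p14, written 5′ to 3′ on the plus strand, and capitals mark each CG, the dinucleotide that carries DNA methylation at imprinted starts and reads the same on both strands. The first is SNURF at chr15:24954737-24955036, and the second is the first of 3 listed starts of MEG3 at chr14:100825858-100826157.
SNURF: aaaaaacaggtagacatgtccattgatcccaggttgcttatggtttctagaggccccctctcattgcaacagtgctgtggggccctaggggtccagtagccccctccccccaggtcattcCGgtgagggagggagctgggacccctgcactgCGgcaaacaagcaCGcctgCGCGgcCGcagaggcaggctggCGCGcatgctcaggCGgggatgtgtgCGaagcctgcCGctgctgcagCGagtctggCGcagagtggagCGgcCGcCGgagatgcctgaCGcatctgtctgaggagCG
MEG3: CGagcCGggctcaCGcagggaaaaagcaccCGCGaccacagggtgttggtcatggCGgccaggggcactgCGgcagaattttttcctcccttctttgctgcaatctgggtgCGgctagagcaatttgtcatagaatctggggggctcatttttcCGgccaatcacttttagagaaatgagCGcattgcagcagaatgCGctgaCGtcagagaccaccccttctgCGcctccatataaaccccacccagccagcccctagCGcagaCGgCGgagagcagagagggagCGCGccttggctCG
The SNURF window held 18 CG and the MEG3 window 19. Of 35116 promoters of this length in the table, 96.0% held at least 1 CG, and 44.5% and 42.9% held as many as these windows or more. DNA methylation was not analysed here.

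Some properties of the arrays touch the results. Arrays of batches 1 to 3 had upper quartiles of 7.82 to 8.08 and those of batches 4 and 5 had lower ones, 5.80 to 6.59, so levels were compared only within a batch. CDKN1A, a p53 target that DNA damage induces, served as a check of the treatment: over the lines it rose by 0.63 ± 0.083 (log2, SE, 46 lines; limma adjusted p = 8.49e-07), and within the replicated lines it rose in 13 of 18 and fell in 0. The treated Hey array stood apart: its highest correlation with an array of another line of its batch was 0.791, against 0.913 for the next lowest treated array of batches 4 and 5. The Hey difference had an SD over all genes of 1.12, against 0.169 to 0.683 in the other 45 lines. The treated culture 1 of OVCAR-10 and the treated culture 3 of OVCA420 also stood apart from their lines, with highest correlations of 0.959 and 0.982. Whether numbered cultures of a line were grown apart is not stated in the labels, and p-values for a line then reflect only the spread of these samples, possibly technical.

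The clusters differed in how far untreated lines parted from each other. A limma F test over the 18 replicated lines found unequal untreated levels within batches (adjusted p under 0.05) for 30 of 46 members: 2 of 2 SNORD113, 3 of 4 SNORD114, 6 of 20 SNORD115 and 19 of 20 SNORD116. Among all 18417 genes, 86.8% were called by the same test, so unequal levels were the rule for genes at large, and the SNORD115 share (30.0%) lay below that background. A line was then set against the other lines of its batch, and a member was called raised or lowered where the limma adjusted p was under 0.05 and the difference at least 1 on the log2 scale. Of 828 pairs of member and line, 87 were raised and 77 lowered, or 10.5% and 9.30%, against 5.42% and 5.00% of pairs over all genes. SNORD116 held 81 of the raised pairs and 77 of the lowered ones, out of its 360. The others were 4 raised pairs of SNORD113 and 2 of SNORD114, and SNORD115 had none.

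**Figure D1:**
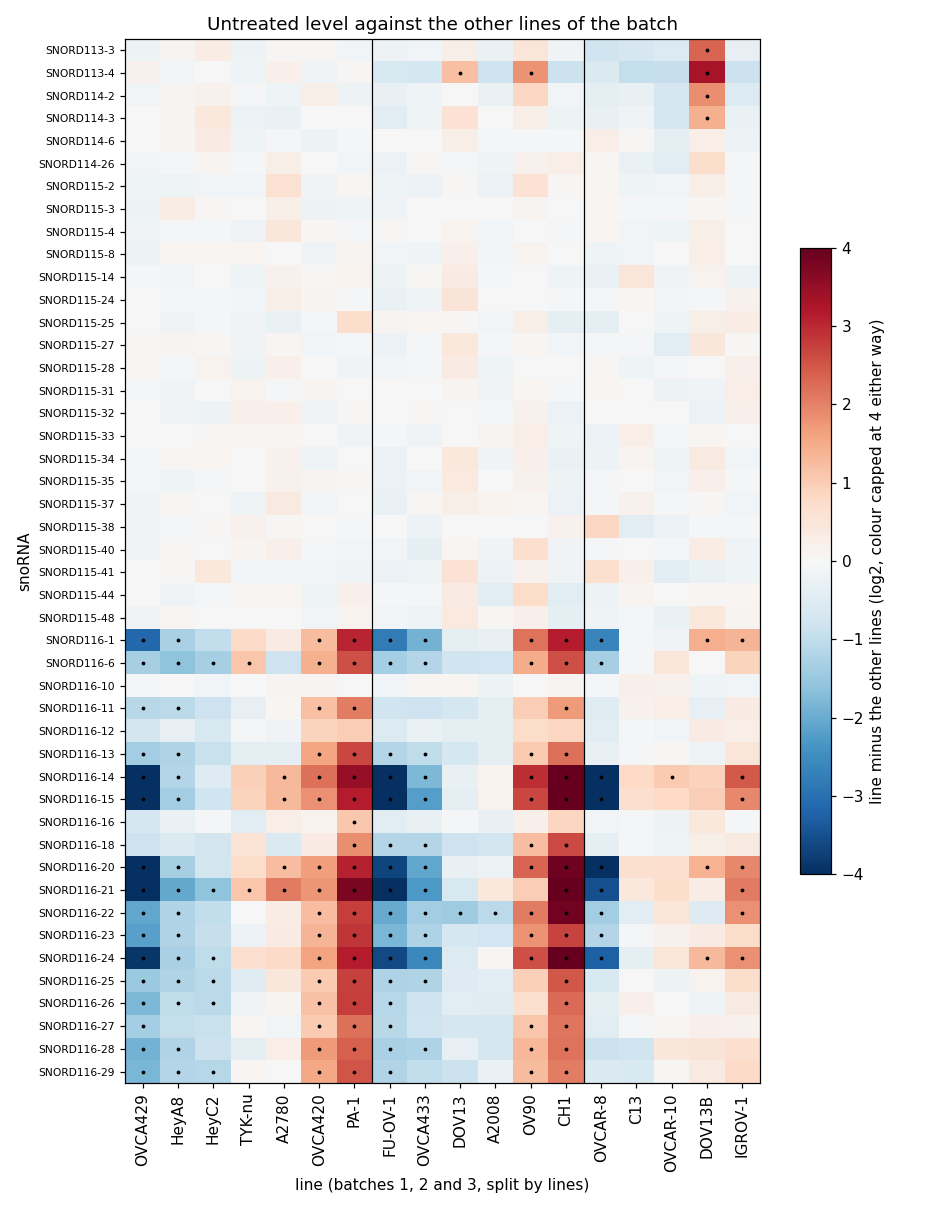
Untreated log2 level of each of the 46 snoRNAs in each of the 18 replicated lines minus the mean of the other lines of its batch, with snoRNAs down the side and lines of batches 1, 2 and 3 along the bottom. Dots mark the 87 raised and 77 lowered pairs; the SNORD116 copies change colour together by line, the SNORD115 copies stay pale, and DOV13B stands out for SNORD113 and SNORD114.

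SNORD116 was high in PA-1, CH1, OVCA420 and OV90 and low in OVCA429, FU-OV-1, HeyA8, OVCA433 and OVCAR-8. Of the 20 copies, 18 were raised in PA-1, 17 in CH1, 16 in OVCA420, 13 in OV90, 7 in IGROV-1, 4 in A2780, 3 in DOV13B, 2 in TYK-nu and 1 in OVCAR-10. The share of all genes raised was 6.64% in PA-1, 4.56% in CH1, 7.18% in OVCA420, 6.66% in OV90 and 3.86% in IGROV-1. In A2780, DOV13B, TYK-nu and OVCAR-10 it was 6.69%, 7.29%, 5.55% and 5.74%. Lowered copies numbered 16 in OVCA429, 16 in FU-OV-1, 15 in HeyA8, 13 in OVCA433, 9 in OVCAR-8, 6 in HeyC2, 1 in A2008 and 1 in DOV13. The share of all genes lowered in these lines was 4.49%, 6.36%, 3.30%, 4.26%, 5.11%, 3.87%, 3.94% and 3.75%, in that order. C13 had neither a raised nor a lowered copy. Since each line was read against the rest of its batch, a call also depends on which lines the batch held.

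The mean of the 20 SNORD116 copies gives the order within a batch. In batch 1, PA-1 cultures had means of 6.67 to 7.10 and OVCA420 cultures 5.59 to 6.11, and OVCA429 cultures were lowest at 2.61 to 2.90. A2780 (4.81 to 5.34) and TYK-nu (4.75 to 5.09) overlapped each other, and both lay above HeyA8 (3.81 to 3.89). In batch 2, CH1 cultures lay at 6.33 to 6.87 and OV90 cultures at 5.41 to 5.58, and FU-OV-1 was lowest at 2.62 to 2.73. In batch 3, IGROV-1 was highest at 4.82 to 5.02 and OVCAR-8 lowest at 2.73 to 2.93, with DOV13B, OVCAR-10 and C13 between them at line means of 4.43, 4.33 and 4.15. The cultures of DOV13B and OVCAR-10 overlapped, so their order was not separated from their spread.

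SNORD116-14 had the largest spread between untreated lines of all members, an SD of 2.60 (log2) over batch-centred line means that exceeded that of 99.8% of all genes. Its untreated cultures read 10.47, 10.79 and 10.94 in PA-1 and 2.19, 2.37 and 2.60 in OVCA429. In OVCA420 they read 9.69, 9.62 and 9.52, and in HeyA8 6.89, 6.73 and 6.55. All PA-1 and OVCA420 cultures lay above all HeyA8 cultures, which lay above all OVCA429 cultures. In batch 2 the values were 10.98, 11.15 and 11.02 in CH1, 9.58, 9.51 and 9.47 in OV90, and 2.05, 2.36 and 2.23 in FU-OV-1. In batch 3 they were 8.44, 8.61 and 9.19 in IGROV-1 and 2.81, 2.69 and 2.35 in OVCAR-8. Each batch thus held 1 line with all untreated cultures between 2.05 and 2.81, apart from every other line. Against the other lines of the batch, SNORD116-14 was higher by 4.79 ± 0.17 in CH1 (SE; limma adjusted p = 4.07e-39) and by 3.50 ± 0.17 in PA-1 (adjusted p = 7.50e-31). The difference was -6.24 ± 0.17 in OVCA429 (adjusted p = 6.47e-47), -5.82 ± 0.17 in FU-OV-1 (adjusted p = 1.54e-44) and -5.20 ± 0.18 in OVCAR-8 (adjusted p = 8.32e-41).

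SNORD116-21 and SNORD116-15 had the next largest spreads, with SDs of 2.35 and 2.16. SNORD116-21 read 10.40, 10.55 and 10.43 in CH1 and 9.72, 9.51 and 10.09 in PA-1. It read 2.30, 2.28 and 1.97 in OVCA429 and 2.07, 1.85 and 2.04 in FU-OV-1. The CH1 cultures exceeded the other lines of their batch by 5.86 ± 0.23 (limma adjusted p = 5.02e-37). In OV90, where SNORD116-14 was raised by 2.95 ± 0.17, SNORD116-21 was just under the minimum difference, at 0.98 ± 0.23 with cultures at 6.06, 6.58 and 6.53. SNORD116-15 read 11.43, 11.68 and 12.02 in PA-1, 11.78, 11.97 and 11.88 in CH1 and 4.76, 4.79 and 4.79 in OVCA429. The OVCA429 difference from the other lines was -4.93 ± 0.19 (limma adjusted p = 2.64e-37).

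**Figure D2:**
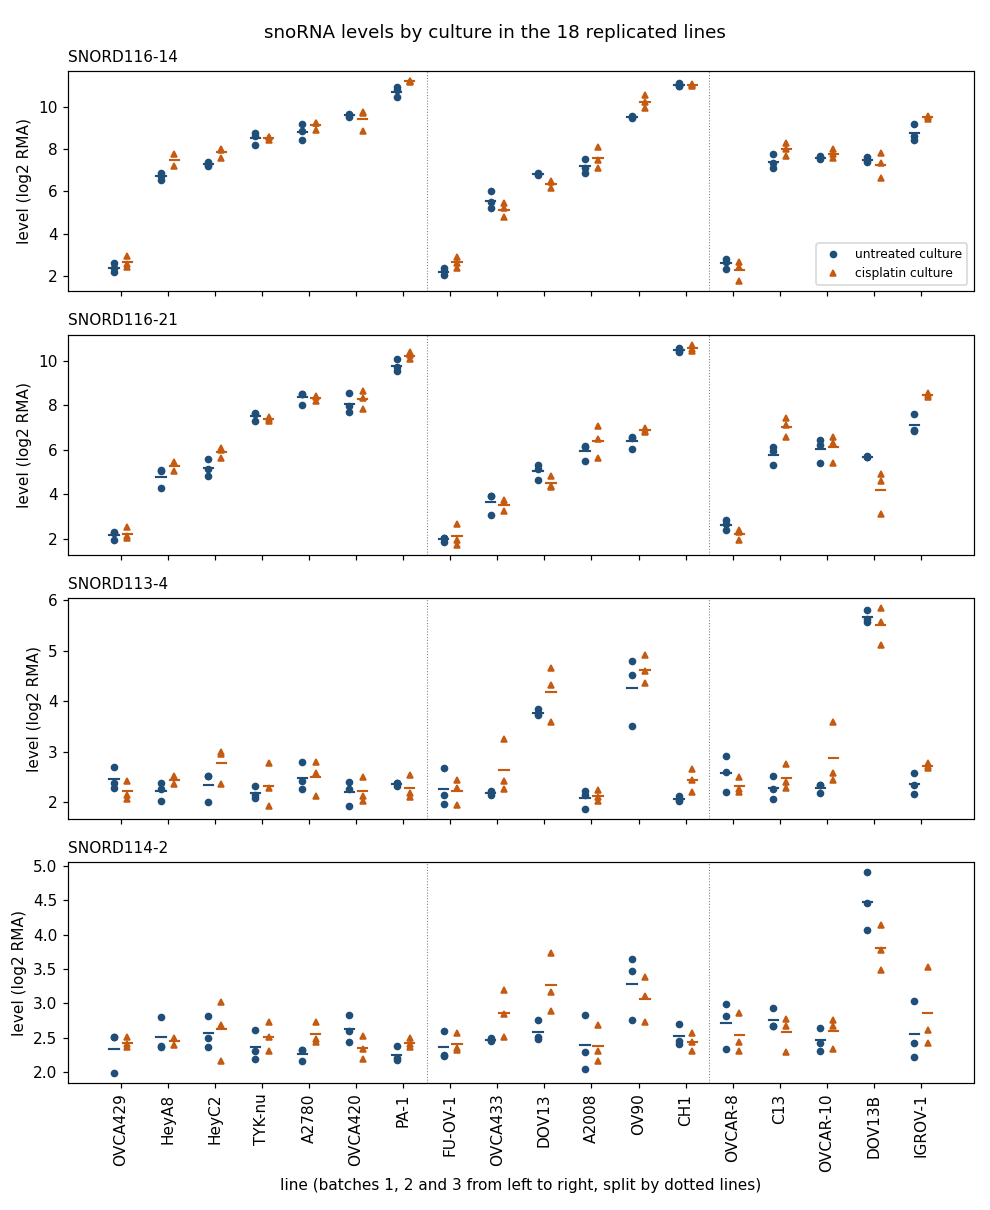
Log2 RMA level of SNORD116-14, SNORD116-21, SNORD113-4 and SNORD114-2 in every culture of the 18 replicated lines, with a panel for each snoRNA, lines ordered within batches 1, 2 and 3 by their SNORD116 mean, dots for untreated and triangles for cisplatin cultures, and short bars for means. OVCA429, FU-OV-1 and OVCAR-8 are lowest for SNORD116-14 and PA-1 and CH1 highest, while DOV13B, OV90 and DOV13 stand out for SNORD113-4.

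The SNORD116 copies mostly moved as one. Over 18 batch-centred line means of batches 1 to 3, each of 19 copies correlated with the mean of the other copies of its family at Pearson r between 0.843 and 0.985. SNORD116-10 was the exception in these batches, with r = 0.31. It was also the copy whose F test did not pass (adjusted p = 0.75), and it was raised or lowered in no line. In batches 4 and 5 the lowest r was that of SNORD116-12 at 0.42, with SNORD116-26 at 0.56 and SNORD116-10 at 0.64. These points share their arrays and the copies share probe sequence, and the correlations are given as a description. In OVCAR-8 the 9 lowered copies were SNORD116-1, SNORD116-6, SNORD116-14, SNORD116-15, SNORD116-20, SNORD116-21, SNORD116-22, SNORD116-23 and SNORD116-24, while SNORD116-25, SNORD116-26, SNORD116-27, SNORD116-28 and SNORD116-29 were not called there. Those 5 copies had SDs of line means from 0.88 to 1.06, against 1.93 to 2.60 for SNORD116-14, SNORD116-15, SNORD116-20, SNORD116-21 and SNORD116-24. Probe sets differ in how strongly they respond, so no order of the copies is read from this.

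The lines of batches 4 and 5, with 1 untreated culture each, had no test. PA-1 was measured again in batch 5 and had the highest SNORD116 mean of its 19 lines, 2.17 above the batch median, with 16 of 20 copies at least 1 above the median (5.29% of all genes were that far above). OVCA433 was measured again in batch 4 and had the lowest mean of 12 lines, -1.13 from the median, with 8 copies at least 1 below it (1.85% of all genes). In both lines the second culture thus lay at the same end as the replicated ones. SNORD116-14 read 8.99 in PA-1, 7.35 in UWB1.289 and 1.67 in Hey within batch 5, around a line order whose middle value was 4.63 in OVCA432. In batch 4 it ranged from 2.80 in OVCA433 and 3.46 in TAYA to 7.33 in ovary1847.

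Other lines of these batches with several copies at least 1 above the median were ovary1847 and UWB1.289 with 8 each, TOV-21G with 6, SKOV-6 with 5 and OVK-18 with 4. The shares of all genes were 3.75%, 5.24%, 3.95%, 3.48% and 5.65%. Copies at least 1 below the median numbered 7 in TAYA, 6 in SKOV-8, 5 in OAW28, 5 in OVCAR-5, 4 in JHOS-3 and 4 in Hey, where 2.39%, 2.73%, 1.81%, 2.63%, 2.96% and 3.02% of genes were that low. Copies could part within a line: TAYA, with 7 copies below, had SNORD116-6 at 8.17, the second highest of the 12 lines after ovary1847 at 8.78. TOV-112D had SNORD116-14 at 6.12, the fifth highest of 19 lines, but SNORD116-21 at 2.26, the fourth lowest.

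**Figure D3:**
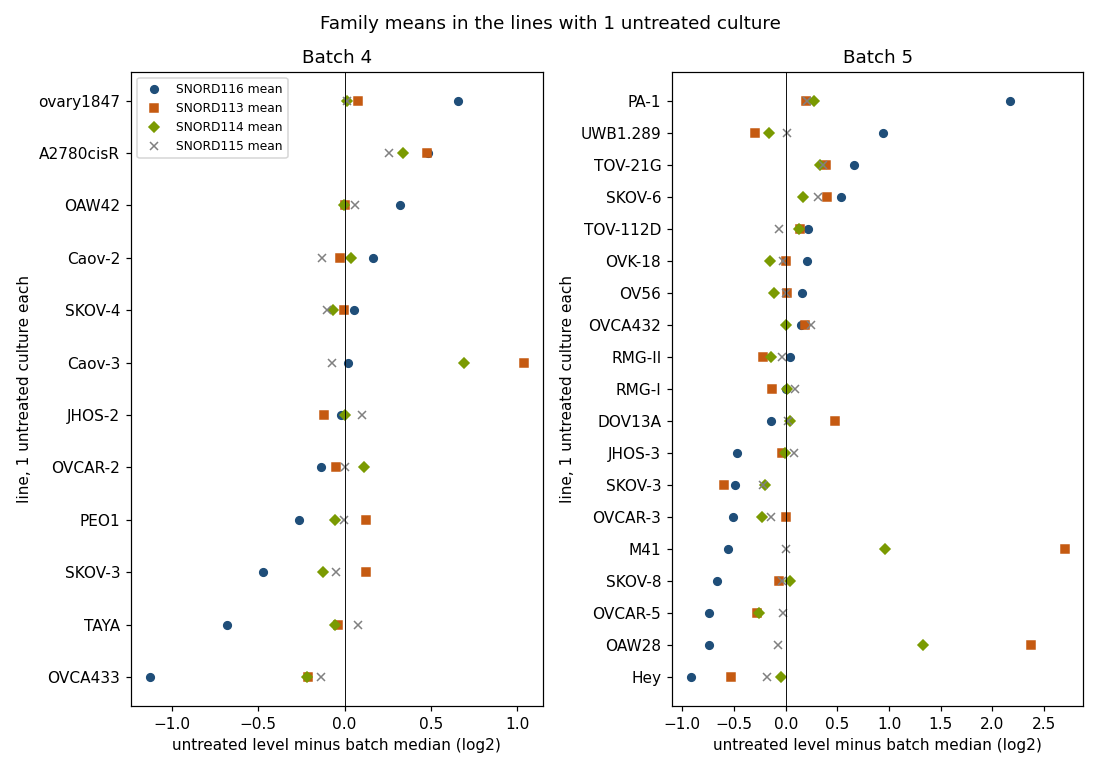
Mean untreated log2 level of each snoRNA family minus the batch median for the 12 lines of batch 4 and the 19 lines of batch 5, 1 untreated culture per line, with lines ordered by the SNORD116 mean. PA-1 lies 2.17 above the batch median and OVCA433 1.13 below it for SNORD116, and M41 and OAW28 stand out for SNORD113 and SNORD114.

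SNORD113-3 and SNORD113-4 were raised in DOV13B, but only SNORD113-4 in OV90 and DOV13. SNORD114-2 and SNORD114-3 were raised in DOV13B. OV90 and DOV13B also had raised SNORD116 copies, 13 and 3. Untreated SNORD113-4 cultures read 5.57, 5.64 and 5.82 in DOV13B, 3.50, 4.52 and 4.79 in OV90 and 3.84, 3.76 and 3.72 in DOV13. In every other replicated line its untreated cultures lay between 1.86 and 2.90, below all untreated cultures of these 3 lines. Among treated cultures, culture 1 of OVCAR-10, which stood apart from its line, read 3.59 and culture 3 of OVCA433 read 3.26. SNORD113-4 exceeded the other lines of the batch by 3.31 ± 0.19 in DOV13B (limma adjusted p = 1.71e-26), by 1.80 ± 0.19 in OV90 (adjusted p = 5.25e-14) and by 1.21 ± 0.19 in DOV13 (adjusted p = 4.50e-08). SNORD113-3 read 5.17, 5.47 and 5.28 in DOV13B and was raised there by 2.34 ± 0.18 (adjusted p = 2.49e-19). It was not called in OV90, at 0.50 ± 0.18 (adjusted p = 0.014), or in DOV13, at 0.24 ± 0.18 (adjusted p = 0.29). Of SNORD114, SNORD114-2 read 4.06, 4.46 and 4.91 in DOV13B and was raised by 1.85 ± 0.18 (adjusted p = 1.92e-15), and SNORD114-3 read 4.28, 4.29 and 4.61 and was raised by 1.43 ± 0.14 (adjusted p = 4.46e-15). SNORD114-26 read 4.05, 3.53 and 3.92 in DOV13B, a difference under the minimum of 1, and SNORD114-6 had an untreated F test that did not pass (adjusted p = 0.27). The shares of all genes raised were 7.29% in DOV13B, 6.66% in OV90 and 4.78% in DOV13.

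In batch 5, M41 and OAW28 stood apart for the same families, without a test. SNORD113-3 read 5.82 in M41 and 5.51 in OAW28, and the next line was DOV13A at 3.41. SNORD113-4 read 4.03 and 3.69 in them, against at most 2.45 elsewhere. SNORD114-2 read 4.72 in M41 and 4.93 in OAW28, with TOV-21G next at 3.04. SNORD114-26 read 5.18 in OAW28 and 4.07 in M41. In batch 4, Caov-3 was highest for SNORD113-3 at 3.28, SNORD113-4 at 2.66 and SNORD114-2 at 3.13. These 3 lines were not high for SNORD116: its mean lay 0.021 from the batch median in Caov-3, -0.56 in M41 and -0.74 in OAW28.

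SNORD115 differed little between lines. Like SNORD113 and SNORD114 it was dim: all 26 members of these families, and 13 of SNORD116, had a mean over arrays under the 20th percentile of all genes, 4.44. The untreated cultures of batches 1 to 3 ran from 1.28 to 4.03 with a median of 2.02 over its 20 copies, and line differences from -0.47 to 0.82 on the log2 scale. Of 360 pairs of copy and line, 24 had a limma adjusted p under 0.05 at any size, against 50.8% of pairs over all genes, and 0 reached the minimum difference of 1. The largest spreads between lines were those of SNORD115-41, SNORD115-44 and SNORD115-25. SNORD115-41 read 2.45, 3.22 and 2.28 in OVCAR-8, a difference of 0.65 ± 0.17 from the other lines (adjusted p = 0.00065), and SNORD115-44 read 3.46, 2.43 and 3.52 in OV90, a difference of 0.73 ± 0.26 (adjusted p = 0.013). SNORD115-25 read 2.87, 3.09 and 3.11 in PA-1, a difference of 0.70 ± 0.20 (adjusted p = 0.0016). Without the cultures numbered 2 the OVCAR-8 value of SNORD115-41 was 0.39 (adjusted p = 0.11), and the F tests over all lines did not pass for SNORD115-44 (adjusted p = 0.48) and SNORD115-25 (adjusted p = 0.084). PA-1, with 18 raised SNORD116 copies, thus had no raised SNORD115 copy from the same host region. RMA values give no call of presence, so these levels do not show whether SNORD115 was expressed at all.

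Other transcripts of the regions were compared over 49 untreated points of line and batch, 18 in batches 1 to 3 and 31 in batches 4 and 5, each centred on its batch. These correlations are descriptions: PA-1, SKOV-3 and OVCA433 appear more than once, related lines are included, and all values of a point come from the same arrays. The gene most like the SNORD116 mean was PWAR6, a non-coding transcript of the Prader-Willi region, with Pearson r = 0.87 (0.95 in batches 1 to 3, 0.91 in batches 4 and 5). PWAR6 cultures read 6.90, 6.68 and 7.08 in PA-1 and 2.23, 2.09 and 2.34 in OVCA429, without overlap. PWAR6 was raised in 5 of the replicated lines, PA-1 (3.71 ± 0.21), CH1 (3.34 ± 0.21), OV90 (1.62 ± 0.21), IGROV-1 (1.24 ± 0.22) and OVCA420 (1.04 ± 0.21), with limma adjusted p-values of at most 1.39e-05. It was lowered in 7, OVCA429, FU-OV-1, HeyA8, HeyC2, OVCAR-8, A2008 and OVCA433. The other measured genes of the region with the largest r were UBE3A, a ubiquitin ligase expressed from the maternal copy in neurons, at 0.52 and NDN, which encodes necdin, at 0.41. UBE3A was lowered in OVCAR-8 (-1.02 ± 0.079, adjusted p = 2.22e-19) and NDN was raised in OVCAR-10 (1.03 ± 0.18, adjusted p = 4.37e-07). MKRN3 and MAGEL2, also paternally expressed there, had r of 0.27 and 0.20 and were raised or lowered in no line.

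Over all points, the gene outside both snoRNA families most like SNORD113 and SNORD114 was MEG3, a maternally expressed non-coding RNA. Its r was 0.81 with SNORD113 and 0.79 with SNORD114 (0.90 and 0.89 in batches 1 to 3, 0.78 and 0.75 in batches 4 and 5). In batches 4 and 5 alone, AGR3 (0.90 and 0.79) and PKHD1L1 (0.86 and 0.82) lay above MEG3. MEG3 read 7.23, 6.56 and 6.95 in DOV13B and was raised there by 1.52 ± 0.16 (limma adjusted p = 4.56e-13), and in batch 5 it was highest in M41 at 6.20 and OAW28 at 5.87. In OV90 and DOV13, where SNORD113-4 was raised, MEG3 was not called, at 0.35 ± 0.16 (adjusted p = 0.061) and 0.33 ± 0.16 (adjusted p = 0.092). The paternally expressed 14q32 genes did not follow: r with SNORD113 was -0.055 for DLK1, 0.065 for RTL1 and -0.27 for DIO3. DLK1, a Notch-family ligand, was raised only in CH1 (1.77 ± 0.15, adjusted p = 4.97e-18), where SNORD113 was not. In PA-1 DLK1 was just under the minimum difference, at 0.93 ± 0.15 (adjusted p = 5.61e-08). RTL1 and DIO3 were raised or lowered in no line. Of 16 measured 14q32 microRNAs, none was raised or lowered in any of the 18 lines, DOV13B included. The F test of untreated levels passed for 9 of the 16 (56.25%), below the 86.8% of all genes. The other genes most like SNORD113 were SNORD114-2 at 0.90, AGR3 at 0.77, SNORD114-26 at 0.75 and PKHD1L1 at 0.71. For SNORD114 they were SNORD113-3 at 0.89, SNORD113-4 at 0.85, PKHD1L1 at 0.73 and AGR3 at 0.72. In batches 1 to 3 alone, r with SNORD113 and SNORD114 was 0.32 and 0.41 for PKHD1L1 and 0.75 and 0.60 for AGR3. SNORD115 was most like TPT1P8, OR13C2, MIR144, RGSL1 and SPMIP10, at r of 0.72 to 0.77, none of them on the list of 15q11-q13 genes. In batches 1 to 3 alone their r was 0.43, 0.70, 0.64, 0.49 and 0.24, in that order, against 0.78 to 0.84 in batches 4 and 5.

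**Figure D4:**
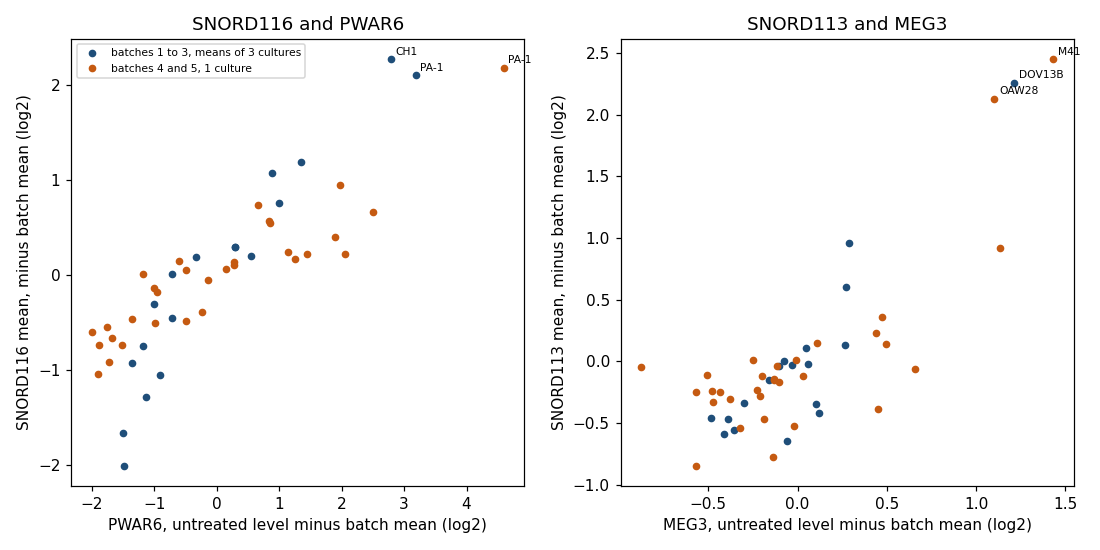
Untreated log2 level minus the batch mean over 49 points of line and batch, with the SNORD116 mean against PWAR6 on the left and the SNORD113 mean against MEG3 on the right, blue for batches 1 to 3 and orange for batches 4 and 5. PA-1 and CH1 lie at the upper right for SNORD116 and PWAR6 (r = 0.87), and M41, OAW28 and DOV13B for SNORD113 and MEG3 (r = 0.81).

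After PWAR6, the genes most like SNORD116 were SCG3, a protein of secretory granules, at r = 0.71, ZNF449 at 0.71, KLHL4 at 0.70 and MIR302A, a microRNA of pluripotent cells, at 0.69. Of 10 listed markers of pluripotent cells, 7 were measured, and 5 of the 7 were raised in PA-1 and 5 in CH1. The other 11 of the 21 raised pairs of marker and line lay in 6 lines, among them A2780 and OV90 with 3 each and FU-OV-1, low for SNORD116, with 2. The mean of the 7 lay between 7.67 and 7.77 in PA-1 cultures and between 7.29 and 7.35 in CH1 cultures, against 4.05 to 6.95 in the cultures of the other 16 replicated lines. Among them LIN28A had r = 0.65 with SNORD116, DPPA4 0.61 and ZFP42 -0.34. In OVCA420, where 16 SNORD116 copies were raised, 0 of the 7 markers were raised and 3 were lowered, with a mean of 4.30 to 4.32. POU5F1, NANOG and TDGF1 were not among the genes with a probe set of 1 symbol. The part of these markers in the PA-1 and CH1 results was not tested. The mean of 8 ovarian epithelial markers was 6.89 in PA-1, the fifth highest of the 7 lines of batch 1, and 6.81 in CH1, the lowest of the 6 lines of batch 2. It was 9.70 in OVCA420 and 10.27 in OVCA429, lines at opposite ends for SNORD116.

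Over all 46 lines, cisplatin moved no member past the threshold. Each line gave 1 difference per gene, the mean of its treated minus the mean of its untreated cultures of the same batch, and limma tested the 46 differences against 0: 0 of 46 members had an adjusted p under 0.05, against 9.70% of all genes (1787 of 18417), and 5 had an unadjusted p under 0.05, all of SNORD116, against 22.1% of all genes, a share that 5 of 20 copies is close to. The lowest adjusted p was that of SNORD116-24, at 0.22 ± 0.074 (log2, SE; adjusted p = 0.051; higher in 29 of 46 lines). SNORD116-1 was at 0.26 ± 0.096 (adjusted p = 0.082; 28 of 46 lines) and SNORD116-14 at 0.21 ± 0.086 (adjusted p = 0.12; 29 of 46). Under the alternative settings the adjusted p of SNORD116-24 ran from 0.026 without batch 5 to 0.28 in batches 4 and 5 alone, on both sides of the threshold. In the other families, SNORD113-3 was at 0.065 ± 0.075, SNORD113-4 at 0.025 ± 0.050, SNORD114-2 at 0.095 ± 0.064, SNORD114-26 at -0.052 ± 0.059, SNORD115-27 at 0.090 ± 0.047 and SNORD115-2 at 0.082 ± 0.055, with adjusted p-values of at least 0.26.

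The count of members above 0 over the lines depended on Hey, mainly through SNORD115. With all lines, 36 of 46 members were above 0 with a median of 0.031, against a median of -0.0061 over all genes. In Hey, 36 members differed by at least 1 and 44 were above 0, with a median of 1.52, while 37.7% of all genes also differed by at least 1 there. Without Hey, 23 of 46 members were above 0 with a median of -0.0023, 0 were called (4 at an unadjusted p under 0.05), and 12.9% of all genes were called (25.3% at an unadjusted p under 0.05). SNORD115 went from 15 to 7 of 20 copies above 0 and SNORD116 from 17 to 14 of 20, with a SNORD116 median of 0.047 with Hey and 0.022 without. SNORD116-24 was then at 0.20 (adjusted p = 0.062) and SNORD113-4 turned to -0.0078.

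Within the 18 replicated lines, cisplatin changed 24 of 828 pairs of member and line: 16 rose and 8 fell (1.93% and 0.966%, limma adjusted p under 0.05 within a line). Over all genes 4.55% of pairs rose and 3.68% fell, so both shares of the members lay below the background. The difference from it was not tested. SNORD116 held 14 of the rises and 4 of the falls, in 6 lines. In PA-1 6 copies rose (12.0% of all genes), in IGROV-1 5 (1.69%), in HeyA8 2 (5.89%) and in C13 1 (10.3%). In OVCA420 3 copies fell (4.53% of all genes) and in DOV13B 1 (0.424%). The other 12 lines had no changed copy. Among them were OVCA429, FU-OV-1 and OVCAR-8, low for SNORD116 without treatment, and CH1 and OV90, high for it. HeyA8, with 2 rises, was also low. The shares of all genes that rose and fell were 17.3% and 10.5% in FU-OV-1 and 9.12% and 4.30% in OVCAR-8. They were 2.25% and 1.66% in OVCA429, 1.45% and 0.527% in CH1, and 1.12% and 1.80% in OV90. TYK-nu, also without a changed copy, had 0.0543% and 0.0217%. Where so few genes were called, the lack of a changed copy says little about SNORD116.

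The largest change was that of SNORD116-18 in PA-1, whose untreated cultures read 3.95, 3.91 and 4.80 and treated ones 5.47, 6.02 and 6.33. The groups did not overlap, and the rise was 1.72 ± 0.33 (limma adjusted p = 8.68e-05). SNORD116-16 rose in PA-1 by 1.19 ± 0.23 (adjusted p = 9.09e-05) and SNORD116-24 by 1.01 ± 0.28 (adjusted p = 0.0047), from 8.77, 9.32 and 9.88 to 10.04, 10.54 and 10.41. All 20 copies were above 0 in PA-1, but also in HeyC2, which had no changed copy, and 18 were in IGROV-1. The copies share probe sequence, so such counts are not independent observations. PWAR6 also rose in PA-1, from 6.90, 6.68 and 7.08 to 7.38, 8.13 and 8.20 (1.02 ± 0.28, adjusted p = 0.0041), and so did UBE3A (0.41 ± 0.10, adjusted p = 0.0017). The other measured genes of the Prader-Willi region were not called in PA-1. NDN was at 0.13, and NPAP1 (-0.32), MAGEL2 (-0.29), MKRN3 (-0.25) and ATP10A (-0.14) lay below 0. PWAR6 was not called in IGROV-1 (-0.19), C13 (0.17), HeyA8 (0.68) or DOV13B (-0.82), which also had changed SNORD116 copies.

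SNORD116-21 changed in opposite directions between lines. In IGROV-1 it went from 6.85, 6.90 and 7.63 to 8.47, 8.37 and 8.57, a rise of 1.35 ± 0.30 (limma adjusted p = 0.0014). In C13 it went from 5.93, 6.12 and 5.31 to 7.45, 7.11 and 6.58, a rise of 1.26 ± 0.30 (adjusted p = 0.0012). In DOV13B it went from 5.74, 5.67 and 5.67 to 4.60, 4.90 and 3.11, a change of -1.49 ± 0.30 (adjusted p = 0.00086). The treated and untreated cultures overlapped in none of these lines. The DOV13B value leaned on its treated culture 3: without the cultures numbered 3 it was -0.95 (adjusted p = 0.24). With the cultures of one number left out in turn, SNORD116-18 in PA-1 and SNORD116-21 in C13 passed each time, and the other 4 of the 6 largest changes missed the threshold at least once.

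In OVCA420, SNORD116-13, SNORD116-11 and SNORD116-23 fell by 0.72, 0.62 and 0.61 on the log2 scale (differences -0.72 ± 0.24, -0.62 ± 0.21 and -0.61 ± 0.20, limma adjusted p = 0.039, 0.043 and 0.029), and 18 of 20 copies were below 0. PWAR6 fell there too, from 5.44, 4.05 and 4.29 to 3.28, 3.34 and 3.65 (-1.17 ± 0.28, adjusted p = 0.0015). NDN, of the same region, went the other way and rose in OVCA420 (0.64 ± 0.22, adjusted p = 0.045). The other measured genes of the region were not called there. NPAP1 (0.15) and MKRN3 (0.067) lay above 0, and UBE3A (-0.13), MAGEL2 (-0.16) and ATP10A (-0.37) below 0. Without the treated culture 3, which stood apart from its line, the falling pairs of all members numbered 5 instead of 8. In the other families, SNORD113-3 rose in DOV13 from 2.95, 3.24 and 3.26 to 3.54, 4.10 and 4.19 (0.79 ± 0.23, adjusted p = 0.037), where 2.64% of all genes rose. SNORD115-41 fell in DOV13 (-0.80 ± 0.21, adjusted p = 0.017) and OVCAR-8 (-0.59 ± 0.21, adjusted p = 0.045), SNORD115-38 fell in OVCAR-8 and SNORD115-4 in A2780, and SNORD115-37 rose in C13. The shares of all genes that fell were 0.668% in DOV13, 4.30% in OVCAR-8 and 1.82% in A2780.

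**Figure D5:**
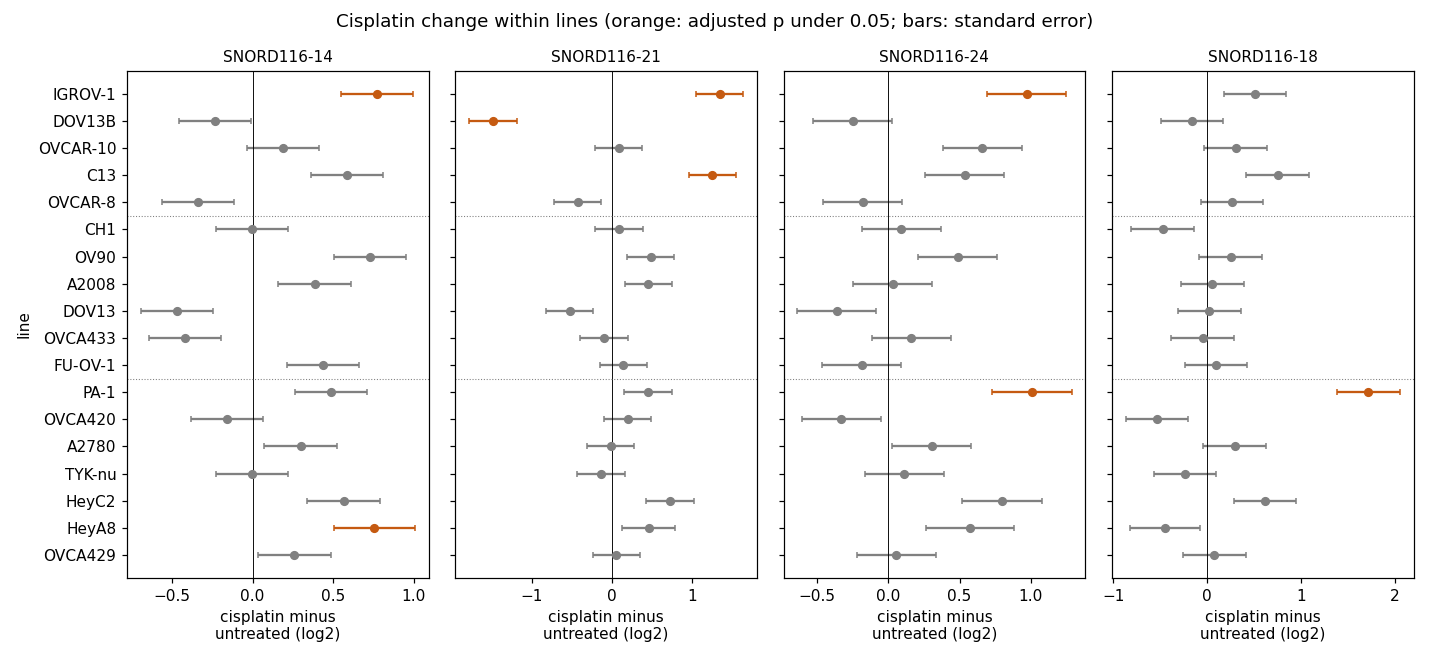
Cisplatin minus untreated (log2) for SNORD116-14, SNORD116-21, SNORD116-24 and SNORD116-18 in each of the 18 replicated lines, with standard errors as bars, batches 1 to 3 from the bottom up and orange for limma adjusted p under 0.05. SNORD116-21 is orange on both sides of 0, at -1.49 in DOV13B and 1.35 in IGROV-1, and SNORD116-18 is orange in PA-1 alone at 1.72.

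Whether the cisplatin change differed between the replicated lines was tested by an F test over the 18 contrasts. It passed for 9 of 46 members, 8 of SNORD116 and SNORD115-48, against 51.0% of all genes. The SNORD116 copies were SNORD116-1, SNORD116-11, SNORD116-14, SNORD116-15, SNORD116-18, SNORD116-21, SNORD116-23 and SNORD116-24, and the lowest limma adjusted p was that of SNORD116-21 (1.04e-05). Of SNORD113 and SNORD114, the lowest adjusted p was that of SNORD113-3 (0.058).

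Related gene lists give the setting. Of 23 measured box C/D snoRNAs from introns of ribosomal protein genes and other housekeeping hosts, 0 passed over the lines (3 at an unadjusted p under 0.05), with a median of 0.071, and 19 differed in their change between replicated lines, against 8 of 20 SNORD116 copies. Of 9 measured proteins that bind or assemble box C/D snoRNAs, 0 passed over the lines and 8 differed between lines. Of the 6 measured 14q32 locus genes, the 16 microRNAs and the 7 measured 15q11-q13 locus genes, 0 passed over the lines, and at an unadjusted p under 0.05 there were 0, 0 and 2. Of 14 other imprinted genes 2 rose and 0 fell over the lines, where 4.98% of all genes rose and 4.72% fell. Untreated levels of the other imprinted genes were raised in 30 and lowered in 35 of 252 pairs, or 11.9% and 13.9%, beside 22.5% and 21.4% of SNORD116 pairs. Over all genes, 5.42% of pairs were raised and 5.00% lowered.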

How the data were processed

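The deposited values are log2 expression levels per probe set, made by the authors with RMA, per the submitters' processing notes; the annotation build is not given in the sources used here. A total of 171 arrays gave 167 cultures, with 4 repeat arrays averaged into theirs. Probe sets were named through the platform annotation: of 33297, 19460 had 1 symbol, 1754 several and 12083 none listed, which left 18417 genes. Array number limits the precision. limma 3.58.1 in R 4.3.3 fitted all genes, with Benjamini-Hochberg adjustment over all of them and a threshold of 0.05. The tests of single lines used 107 cultures of 18 lines (71 residual degrees of freedom). Members and gene lists were chosen with earlier results of these data known. Genes named with values were those with the largest spread between lines, the largest differences and the lowest adjusted p in each family, besides neighbours on the lists; others named were chosen after their values were seen. Scripts were tested on simulated data. Alternatives were the probe set rule, array centring, a filter on dim genes, repeat arrays, a replicate block, left-out cultures and batches, and the fitting. Leaving out the treated cultures 3 of OVCA420, 1 of OVCAR-10 and 1 of Hey was added after seeing the data.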

Additional observations from a re-analysis of the deposited data

Results flagged for a closer look

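For 6 of the named SNORD116 copies the cisplatin change differed between the replicated lines by a test of the difference itself, limma's F test over the 18 lines, with adjusted p-values over all genes. The adjusted p was 1.04e-05 for SNORD116-21, 0.00073 for SNORD116-14 and 0.0067 for SNORD116-15. It was 0.0093 for SNORD116-24, 0.0097 for SNORD116-18 and 0.014 for SNORD116-1. The same test passed for 51.0% of all genes.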

How the results depend on the processing

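Over the lines, 0 members passed, against 1 without genes under the 20th percentile of mean level (which keeps 14733 genes and 7 members, all of SNORD116), 1 without repeat arrays, 1 without the treated culture 3 of OVCA420 and 2 without batch 5. Within lines, 16 pairs rose and 8 fell. Fitting each line alone gave 25 and 3, 4 fell with the replicate block (18 rose), 1 fell without the dim genes, 5 fell without that OVCA420 culture, and 9 fell without the treated culture 1 of OVCAR-10 (10 members then differed in their change between lines). Leaving out the cultures of one number gave 4 to 18 rises, 2 to 6 falls and 4 to 8 members whose change differed between lines. Untreated, the dim filter left 7 members that differed between lines, 43 raised pairs and 38 lowered pairs, and a minimum of 1.5-fold gave 126 lowered pairs. Directions over the lines reversed for SNORD113-4 (-0.0064 without batch 2, -0.051 in batches 4 and 5 alone, -0.0078 without Hey, but 0.027 without the OVCA420 culture). It was also at -0.015 without HeyC2, Hey, DOV13A, DOV13B, C13 and A2780cisR, a setting that kept both PA-1 and CH1. Directions reversed too for SNORD113-3 (-0.00011 without batch 5), SNORD115-27 (-0.028 in batches 1 to 3 alone) and SNORD115-2 (-0.0028 there). Apart from the shrinking of the tested list by the dim filter and of the samples by the left-out ones, the cause was not tested. Culture numbers did not pair the samples: 7 of 53 same-numbered pairs correlated over 0.1, and in 0 lines did all pairs.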
